A study of Mus musculus with 7 samples.

Results

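Cytosolic ribosomal proteins were measured in quadriceps femoris, a thigh muscle, of mice carrying a transgene for mutant Twinkle and of wild-type mice. Members were all probe sets annotated to a single symbol made of Rpl or Rps, a number and at most 1 letter, or to Rplp0, Rplp1 or Rplp2. This gave 98 of the 45101 probe sets in the table, for 45 of 18193 named genes, of which 21 belong to the small subunit (54 probe sets) and 24 to the large subunit (44 probe sets). Another 110 probe sets name such a gene together with other genes and fall outside the rule. No probe set for Rplp1, Rpl3 or Rpl5 fell inside it, and these 3 genes were not analysed here.

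Twinkle is the helicase of mitochondrial DNA replication, and the mutant mice model progressive external ophthalmoplegia, a mitochondrial muscle disease. The mutant group held 3 mice that overexpress mutant Twinkle, at 24, 24 and 21 months of age in replicates 1 to 3, and the wild-type group 4 mice at 26, 24, 21 and 23 months in replicates 1 to 4. Each muscle RNA was hybridised to 1 Affymetrix array, and the labels name biological replicates. The promoter that drives the transgene and the number of founder lines are not given in the sources used here. The free-text descriptions of the samples name cerebellum where the other labels name muscle. All 10 muscle fibre markers had a probe set in the highest recovered level range, whereas 0 of 10 cerebellum markers did.

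The cytosolic ribosome translates nuclear-encoded messages. Its small subunit reads the message and its large subunit joins the amino acids, and each protein is needed in about equal number. Most vertebrate ribosomal protein messages begin with a run of pyrimidines, the terminal oligopyrimidine or TOP tract, through which mTORC1 and LARP1 control their translation and stability together. The messages are short and abundant in nearly all cells, and their genes have left many processed pseudogenes, so probe sets can be shared with near-identical copies and a value for 1 gene is uncertain to that extent.

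The sequences around the annotated start show what the genes share beyond their symbols. RefSeq windows of the build GRCm38.p6, from 250 bases before to 50 bases after a start, were found for 39 of the 45 genes, in 47 windows. The longest unbroken run of C or T within 50 bases of the start on either side had at least 8 bases in 37 of the 47 windows (78.7%), against 11741 of all 32851 windows in the table (35.7%). At least 1 window of 35 of the 39 genes held such a run. The annotated start need not be the one used in muscle, so the run is given with its distance from that start and not as a mapped TOP tract. The following 30-base windows are written 5′ to 3′ on the strand of the gene, with that run in capitals. The first 5 belong to genes whose values spread widely over the 7 arrays, Rpl4 and Rps28 to genes with a narrow spread, and Rpl3l to the striated muscle paralogue of Rpl3.
Rps15, chr10:80292446-80292475, plus strand: gcagcccgtaCTTCCTTTTCCgagtaaccg
Rpl41, chr10:128549119-128549148, minus strand: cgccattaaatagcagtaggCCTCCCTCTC
Rpl37a, chr1:72711274-72711303, plus strand: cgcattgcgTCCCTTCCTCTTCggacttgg
Rpl11, chr4:136053358-136053387, minus strand: ccggaagTCTCCCTCTCTCTTCCTgttctc
Rps26, chr10:128626485-128626514, minus strand: aagccgccggaTCCTCTTTCgagtcttggc
Rpl4, chr9:64173405-64173434, plus strand: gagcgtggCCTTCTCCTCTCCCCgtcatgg
Rps28, chr17:33824567-33824596, minus strand: tctgtcccgaggaTTCCTgggtaccgcgtg
Rpl3l, chr17:24727846-24727875, plus strand: tggtggggaggCCCCTTCCTaacctgcagg

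The run had 11 bases in Rps15, 10 in Rpl41, 13 in Rpl37a, 17 in Rpl11 and 9 in Rps26. Counting the start as the first base, it began at base 26, 41, 24, 14 and 4 in these genes. In Rpl41 it ended at the edge of the searched stretch, so its length there is a lower bound. Rpl4, whose values hardly moved, had a run of 15 bases, Rps28 one of 5 and Rpl3l one of 9 in the window shown. These runs began at base 27 in Rpl4, at base 32 in Rpl3l and 21 bases before the start in Rps28. The run of Rpl4 was thus within the range of the genes shown with a wide spread, and that of Rps28 was shorter than all of these. Of genes not shown, Rps2, with a narrow spread, had a run of 10 bases. Rps27l, with a wide spread, had runs of 9 and 5 in different windows. Run length and spread were not compared over all genes with a window. The letters CCGGAAG, which ETS-family factors such as GABP bind, were searched on both strands of the whole 300-base windows. They were present in 19 of the 47 windows (40.4%) and in 2910 of all 32851 (8.86%). The letters can overlap the end of a pyrimidine run, because their reverse complement CTTCCGG begins with pyrimidines. A pair of matches, in capitals, is shown for Rps6, the ribosomal protein that S6 kinase phosphorylates, and for Rpl41.
Rps6, chr4:86857425-86857484, minus strand: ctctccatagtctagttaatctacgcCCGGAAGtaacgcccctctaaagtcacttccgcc
Rpl41, chr10:128549191-128549250, minus strand: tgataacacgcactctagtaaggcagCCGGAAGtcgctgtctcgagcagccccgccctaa

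These matches begin 91 bases before the start in Rps6 and 56 bases before it in Rpl41. A match is a description of the letters and no measure of binding.

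Each deposited log2 value is a deviation from the median of its probe set over the 7 arrays, which gives differences between arrays but no level. The spacing of the numbers still gave a coarse level range, with 16 as an assumed upper bound. Every array lay between 8 and 16 on the log2 scale in 67 of the 98 probe sets (68.4%), against 11.9% of the 34945 probe sets tested. The lowest array lay between 4 and 8 in 16 member probe sets and between 2 and 4 in 15. Of the 45 genes, 35 had at least 1 probe set between 8 and 16.

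No cytosolic ribosomal protein probe set passed the test for a difference between genotypes. With limma, 0 of the 98 passed an adjusted p of 0.05 where the same fit called 0% of the 34945 probe sets tested. At an unadjusted p under 0.05 the fit had 0 members higher and 0 lower in mutant muscle, against 1.2% and 0.592% of all probe sets tested, or 1.79% in either direction. The lowest-p member was a dim probe set of Rps18, a protein of the small subunit head. It measured 0.33, 0.21 and 0.00 in mutant and 0.00, -0.02, 0.00 and -0.17 in wild-type muscle, a difference of 0.22 ± 0.11 (limma, unadjusted p = 0.0678, adjusted p = 1.0). Mutant replicate 3 tied with wild-type arrays there. Complete separation of the genotypes was found in 0 of the 98 probe sets with mutant muscle higher and in 0 with it lower, against 1.1% and 0.941% of all probe sets tested. Averaged over the members, mutant arrays lay at -0.03 ± 0.12 (SD, n = 3). Wild-type arrays lay at -0.06 ± 0.17 (SD, n = 4), a difference of 0.03 ± 0.11 (SE over arrays). The difference was 0.01 ± 0.11 for the small subunit and 0.04 ± 0.12 for the large subunit, both smaller than the SD between mice of 1 genotype, 0.14 and 0.16.

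Single differences were small as well. The median difference over the members was 0.03, with quartiles of -0.01 and 0.08, and the median over all probe sets tested was -0.01. A positive difference was found in 69 of the 98 probe sets, against 48.3% of all probe sets tested, but this count turned with single arrays. Leaving out wild-type replicate 1 lowered it to 39, and leaving out wild-type replicate 4 or mutant replicate 3 to 45. It lay between 61 and 75 when any of the other 4 arrays was left out. The 95% interval of the limma difference lay within -0.5 to 0.5 in 56 of the 98 probe sets and within -1 to 1 in 93. Its half-width ran from 0.17 to 1.14 with a median of 0.37, so the size of change that could be detected differed between members.

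**Figure D1:**
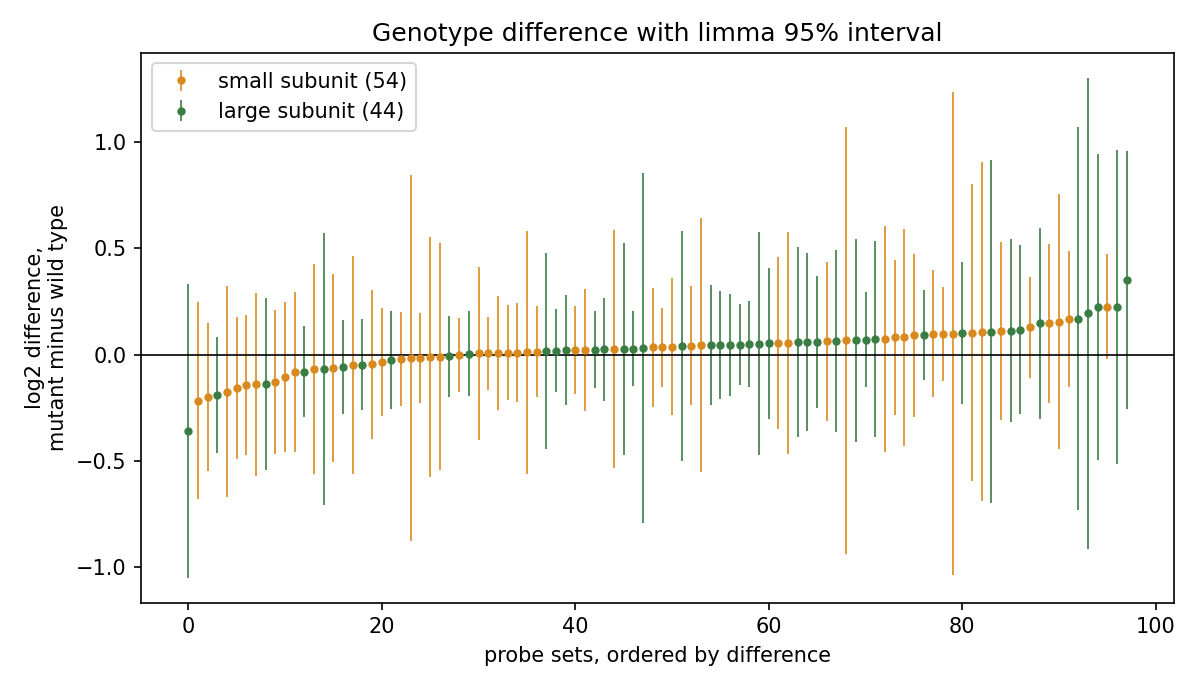
Log2 difference between mutant and wild-type muscle for each of the 98 probe sets, ordered by size, with limma's 95% interval as a vertical line (3 against 4 arrays). The differences run from -0.36 to 0.35 and all 98 intervals include 0.

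The highest and the lowest probe set of this order were those of Rpl22 and Rpl39l, which both have a paralogue. Rpl22, a large subunit protein that is dispensable for growth and regulates its paralogue Rpl22l1, had the highest difference. One of its probe sets measured 0.34, -0.44 and 0.45 in mutant replicates 1 to 3 and -0.58, 0.07, 0.00 and -0.44 in wild-type replicates 1 to 4, a difference of 0.35 ± 0.26 (SE) with an interval from -0.26 to 0.96. The 2 groups overlapped, and mutant replicate 2 was as low as wild-type replicate 4. The other 2 probe sets of Rpl22 differed by 0.07 ± 0.20 and -0.07 ± 0.27. Rpl22l1, outside the symbol rule, differed by -0.25 ± 0.16 and did not pass (limma adjusted p = 1.0). Its values were -0.51, -0.29 and 0.02 in mutant and -0.29, 0.00, 0.12 and 0.14 in wild-type muscle, so the groups overlapped.

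Rpl39l, a paralogue of Rpl39 best known from male germ cells, had the lowest difference, at -0.36 ± 0.29. It measured -0.01, -0.08 and 0.00 in mutant and -0.04, 0.00, 1.20 and 0.16 in wild-type muscle. Wild-type replicate 3 alone stood high, and the other 3 wild-type arrays lay between -0.04 and 0.16. In the same array the leukocyte, adipocyte and fibroblast marker means were the highest of the 7 arrays, at 0.58, 0.92 and 0.92, and Gapdh control probes toward the 5 prime end of the message read lowest relative to those at the 3 prime end, at -0.55. The same value for the Actb control was 0.12, within the range of -0.14 to 0.12 over the 7 arrays. Their part in the Rpl39l value was not tested.

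Spread between arrays was much larger than the genotype difference, and it ran across both genotypes. Mutant replicate 2 and wild-type replicates 1 and 4 had member means of -0.16, -0.22 and -0.18. The other 4 arrays lay at 0.02 (mutant replicate 1), 0.05 (mutant replicate 3), 0.04 (wild-type replicate 2) and 0.13 (wild-type replicate 3). Below its own median lay 59 of the 98 probe sets in mutant replicate 2, 68 in wild-type replicate 1 and 60 in wild-type replicate 4, against 14 to 31 in the other 4 arrays. The means in the small subunit were -0.18, -0.20 and -0.17 in the 3 low arrays and 0.00 to 0.13 in the other 4, and those in the large subunit were -0.15, -0.25 and -0.18 against 0.03 to 0.12. Both subunits were thus low in the same 3 arrays by about the same amount.

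**Figure D2:**
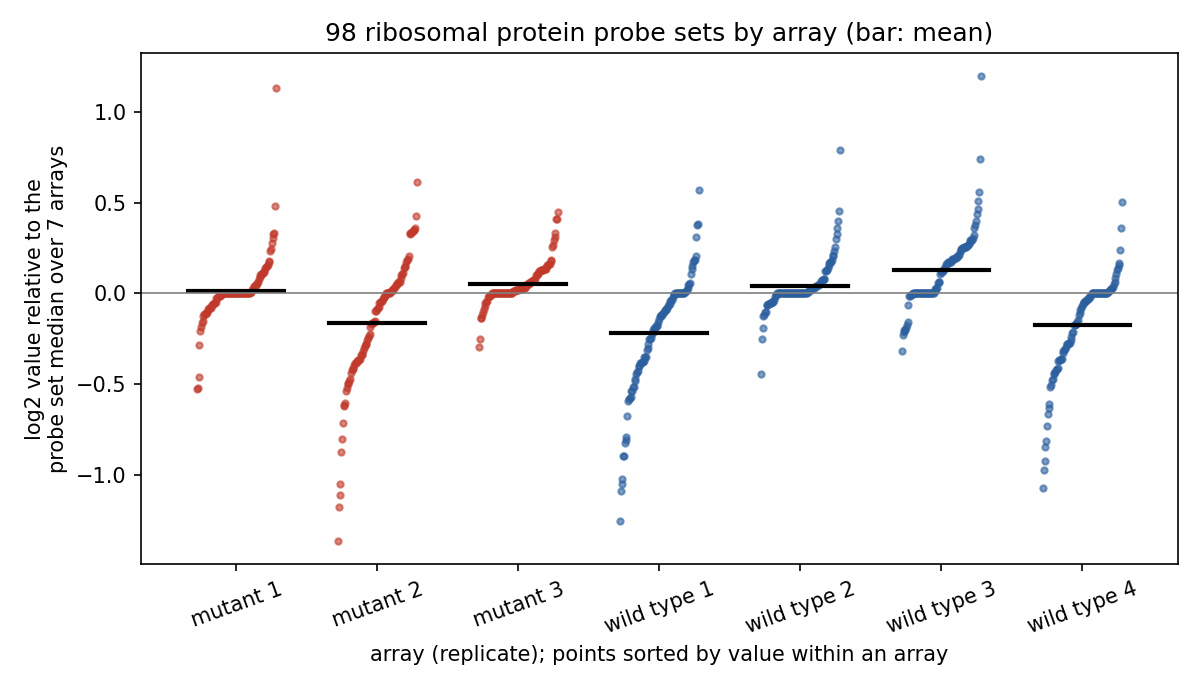
Log2 values of the 98 probe sets in each array, relative to the probe set's median over 7 arrays, with each point a probe set and the black bar the mean. Mutant replicate 2 and wild-type replicates 1 and 4 have means from -0.22 to -0.16 and a long lower tail that reaches -1.37, while the other 4 means lie from 0.02 to 0.13.

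The same 3 arrays stood apart from the other 4 in the rest of the array. The first principal component over the 34847 tested probe sets outside the members held 52.2% of their variance. The sign of its scores defined the split used here, so that the sign separates the arrays is no separate result. The scores were -50.3, -38.0 and -20.8 in mutant replicate 2 and wild-type replicates 1 and 4. In mutant replicate 3, wild-type replicate 2, mutant replicate 1 and wild-type replicate 3 they were 7.7, 16.9, 32.1 and 52.5, so they were graded on both sides. Mutant replicate 3 lay closest to the dividing line. The labels give no batch. The mice of the 3 arrays were 24, 26 and 23 months old and those of the other 4 arrays 24, 21, 24 and 21 months, so the oldest mouse was among the 3 and both youngest among the 4, and the part of age was not tested. The split is described without a test. Mutant replicate 2 and wild-type replicates 1 and 4 were all below the other 4 arrays in 47 of the 98 member probe sets (48.0%), against 8.99% of all probe sets tested. They were all above the other 4 in 9 member probe sets (9.18%), against 10% of all. Within the level range of 8 to 16, where most members lie, the 3 arrays were below the other 4 in 40 of 67 member probe sets (59.7%) and in 671 of the 4102 other probe sets (16.4%). The median offset, the mean of the 3 arrays minus the mean of the other 4, was -0.28 in these 67 and 0.03 in the 4102.

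Over the 98 probe sets the 3 arrays also resembled each other in which members were low. Their pairwise correlation was 0.82 (mutant replicate 2 with wild-type replicate 1), 0.82 (mutant replicate 2 with wild-type replicate 4) and 0.85 (wild-type replicates 1 and 4). Over the 34847 other probe sets the same pairs had 0.50, 0.38 and 0.51. These correlations are across probe sets, which are not independent replicates, and the values of all arrays share the median that was subtracted.

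Rps15, a small subunit protein near the decoding site, had the widest spread. One probe set measured 0.11, -1.37 and 0.03 in mutant replicates 1 to 3 and -1.25, 0.00, 0.19 and -0.98 in wild-type replicates 1 to 4. The second measured 0.03, -1.11 and 0.00 in mutant and -1.09, 0.02, 0.28 and -0.92 in wild-type muscle. The 3 arrays thus lay 2.43-fold and 2.18-fold below the other 4, while the genotype differences were 0.10 ± 0.49 and 0.07 ± 0.43. Rpl41, the shortest protein of the large subunit, measured 0.28, -1.17 and 0.13 in mutant and -1.02, 0.00, 0.30 and -1.08 in wild-type muscle with its most variable probe set, with a genotype difference of 0.19 ± 0.47. Rpl37a, a zinc-binding protein of the large subunit, measured 0.05, -0.88 and 0.13 in mutant and -1.05, 0.00, 0.25 and -0.81 in wild-type muscle. In each of these genes both genotypes contributed to the low values.

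Rps27l, a paralogue of Rps27 that p53 induces, gave the fifth of the widest spreads. Its most variable probe set measured 0.00, -0.72 and 0.25 in mutant and -0.43, 0.21, 0.51 and -0.85 in wild-type muscle, a genotype difference of -0.02 ± 0.37. The other 2 probe sets of Rps27l differed by -0.01 ± 0.23 and -0.05 ± 0.22, and all 3 were lowest in wild-type replicate 4 and highest in wild-type replicate 3. Rpl11, which with Rpl5 and 5S rRNA can bind MDM2, measured 0.00, -1.05 and 0.07 in mutant and -0.90, 0.07, 0.03 and -0.63 in wild-type muscle. Its genotype difference was 0.03 ± 0.35. Rps26, at the exit channel of the message, lay at -0.80 in mutant replicate 2 and at -0.83 and -0.73 in wild-type replicates 1 and 4, against 0.00 to 0.24 in the other 4 arrays.

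**Figure D3:**
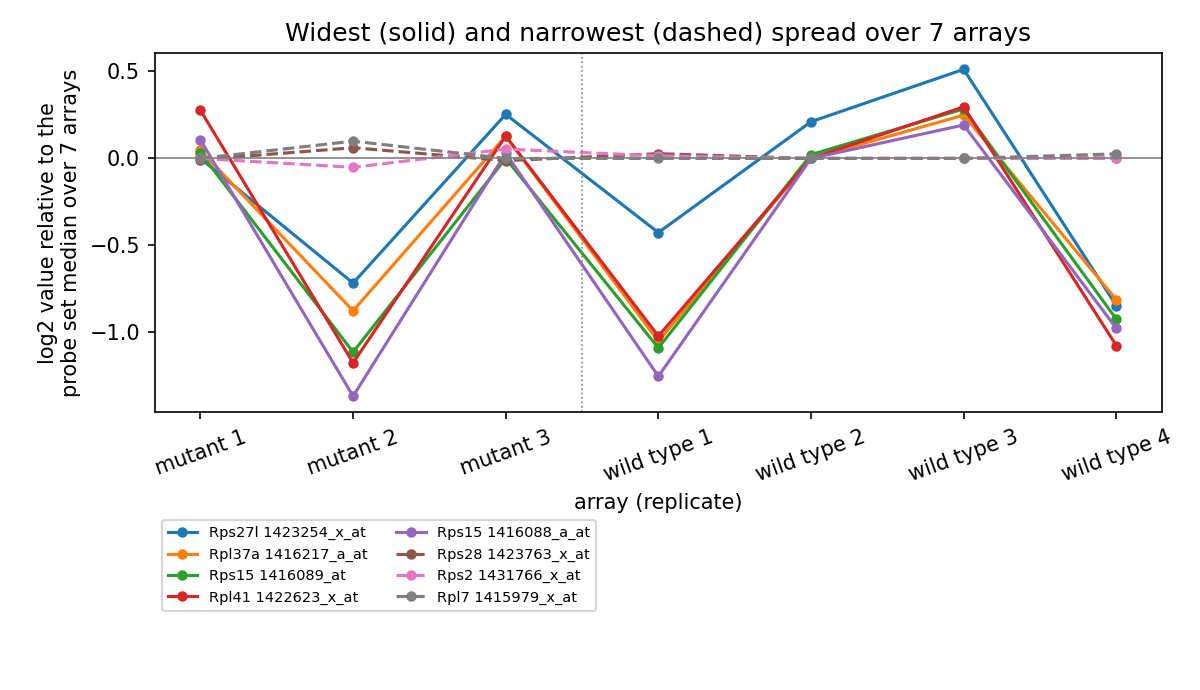
Log2 values by array, relative to the probe set's median, for the 5 probe sets with the largest SD over the 7 arrays (solid) and the 3 with the smallest (dashed), with the dotted line between mutant and wild-type arrays. The solid lines drop in mutant replicate 2 and wild-type replicates 1 and 4, to between -1.37 and -0.43, while the dashed lines stay between -0.05 and 0.10.

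Other members hardly moved. The 3 narrowest probe sets, of Rps28, Rps2 and Rpl7, had an SD over the 7 arrays of 0.03, 0.03 and 0.04. The median SD was 0.21 over the members and 0.19 over all probe sets tested. Within the level range of 8 to 16 it was 0.21 over the members and 0.24 over the other probe sets, so at that level the members spread less. Rps2, a small subunit protein at the entry of the message channel, measured 0.00, -0.05 and 0.05 in mutant and 0.01, 0.00, 0.00 and 0.00 in wild-type muscle. Rpl4, a large subunit protein lining the exit tunnel, measured 0.00, 0.05 and 0.00 in mutant and -0.01, 0.01, -0.17 and 0.04 in wild-type muscle. No array of Rps2 left the range from -0.05 to 0.05, and mutant replicate 2 was not low in Rpl4. Rps20 went the other way. One of its probe sets measured -0.10, 0.35 and -0.05 in mutant and 0.38, 0.00, -0.23 and 0.36 in wild-type muscle, with the 3 arrays all above the other 4.

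Among the stalk proteins, which recruit the translation factors, Rplp0 measured -0.02, -0.10 and 0.00 in mutant and -0.20, 0.03, 0.11 and 0.01 in wild-type muscle. Rplp2 measured 0.00, -0.02 and 0.00 in mutant and -0.18, 0.02, 0.19 and -0.24 in wild-type muscle. The genotype differences were -0.03 ± 0.10 and 0.04 ± 0.12, and the groups overlapped in both. Rps19, the protein most often mutated in Diamond-Blackfan anaemia, differed by -0.03 ± 0.11, with 0.27 in wild-type replicate 3 and -0.09 to 0.05 in the other 6 arrays. The 2 probe sets of Rps6 differed by -0.07 ± 0.21 and -0.16 ± 0.14, and neither lay in the range from 8 to 16. In the brighter of these, mutant replicate 1 was lowest at -0.52 and mutant replicate 2 highest at 0.35, so the mutant arrays spanned all 4 wild-type arrays.

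Rpl3l, which replaces Rpl3 in ribosomes of heart and skeletal muscle, measured -0.02, 0.00 and 0.02 in mutant and -0.47, 0.30, -0.32 and 0.03 in wild-type muscle. The difference was 0.11 ± 0.18 with an interval from -0.32 to 0.54. The mutant arrays lay within 0.02 of the median while the wild-type arrays spread on both sides of it. Mutant arrays had an SD of 0.02 (n = 3) and wild-type arrays one of 0.35 (n = 4), and no test of this difference in spread was made. Its low arrays, wild-type replicates 1 and 3, are not those in which most members were low.

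Probe sets of 1 gene often disagreed. Of the 22 genes with more than 1 member probe set, 13 had genotype differences of both signs and 9 had array offsets of both signs. In Rpl35, a protein at the exit of the tunnel, 1 probe set measured -0.62 in mutant replicate 2 and -0.79 and -0.61 in wild-type replicates 1 and 4. Another probe set of the same gene gave 0.43, 0.15 and 0.14 in these arrays. The offset ran from -0.89 to 0.38 over the 6 probe sets of Rpl35, from -1.27 to 0.10 over the 4 of Rpl41 and from -0.77 to 0.23 over the 3 of Rps9. The genotype difference ran from -0.19 to 0.12 in Rpl35 and from -0.08 to 0.22 in Rpl41, the widest gaps after Rpl22.

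**Figure D4:**
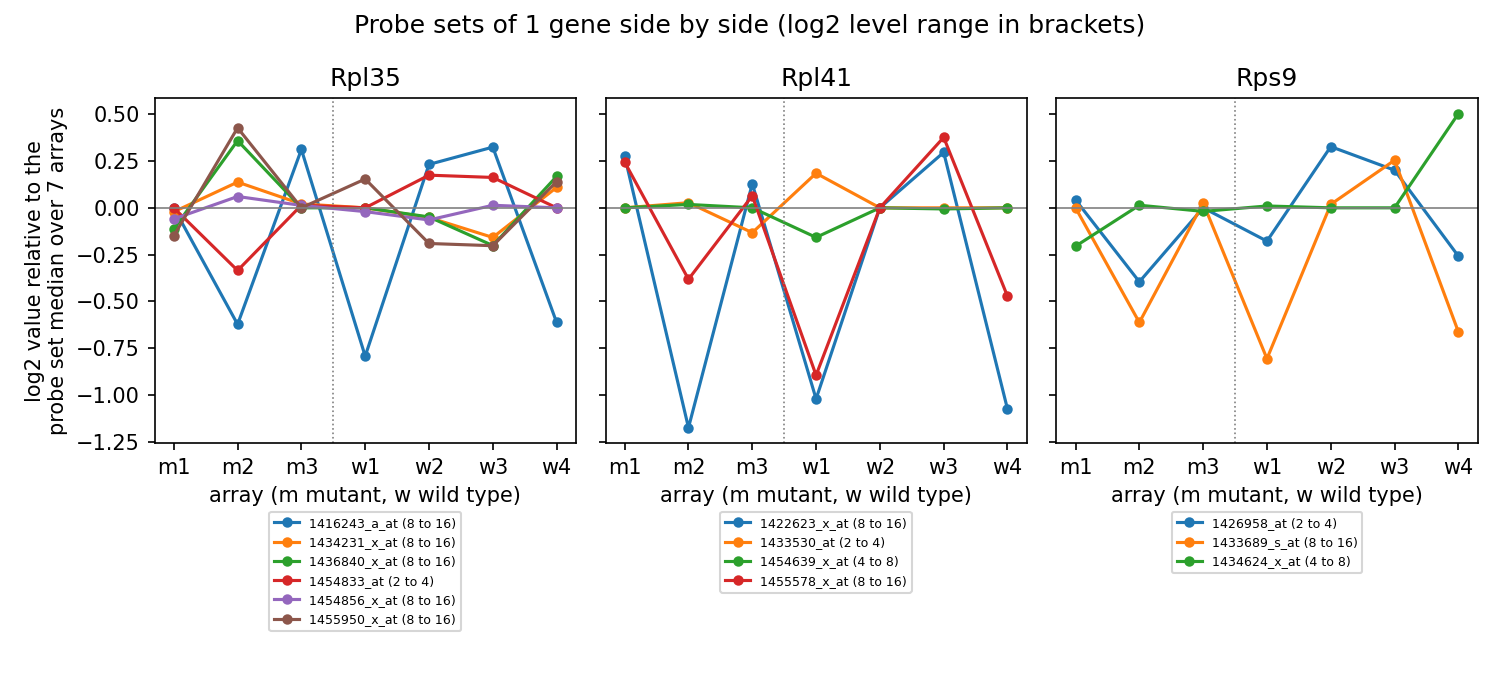
Log2 values by array, relative to the probe set's median, for every member probe set of Rpl35, Rpl41 and Rps9, with the recovered log2 level range in brackets. At least 1 probe set of each gene drops below -0.38 in m2, w1 and w4 together, while others of the same gene fall less, stay near 0 or rise.

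Offsets also differed by the kind of probe set, in members and in other probe sets alike. Probe sets whose name ends in x_at contain probes that match other transcripts, and those ending in a_at detect several transcripts of 1 gene. Among members between 8 and 16, the 3 arrays were all below the other 4 in 18 of 24 a_at probe sets, in 16 of 35 x_at probe sets, in 4 of 6 with the plain suffix and in 2 of 2 ending in s_at. Among other probe sets at that level these were 159 of 808, 51 of 394, 411 of 2572 and 50 of 328. The median offset was -0.34 in the a_at and -0.12 in the x_at probe sets. The other probe sets at that level gave 0.02 for a_at and 0.20 for x_at. The part of cross-hybridisation in the disagreement was not tested.

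The 110 probe sets that name a ribosomal protein together with other genes had means of -0.11, -0.17 and -0.15 in mutant replicate 2 and wild-type replicates 1 and 4, and of -0.04 to 0.10 in the other 4 arrays. The 3 arrays were below the other 4 in 50 of the 110 (45.5%). These probe sets share transcripts with the members and are not independent of them. The 156 probe sets of mitochondrial ribosomal proteins had a median offset of -0.09, against -0.20 in the members, and the 3 arrays were below the other 4 in 47 of them (30.1%). Fewer of them are bright. Between 8 and 16 the 3 arrays were below the other 4 in 28 of 71 (39.4%), against 59.7% of the members at that level. The median offset there was -0.13 against -0.28. An offset under -0.5 was found in 23.9% against 26.9%. The genotype difference of the 156 probe sets was 0.03 ± 0.07 (SE over arrays).

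The means of several marker lists were also lower in each of these 3 arrays than in any of the other 4. Leukocyte markers (8 of 9 genes measured) averaged -0.15, -0.39 and -0.27 in mutant replicate 2 and wild-type replicates 1 and 4, against -0.06 to 0.58 in the other 4, and all 11 probe sets had a negative offset, but the 3 arrays were all below the other 4 in only 2 of the 11. Endothelial markers (6 of 6) averaged -0.09, -0.29 and -0.39 against 0.06 to 0.22, and satellite cell markers (5 of 5) -0.05, -0.26 and -0.24 against 0.05 to 0.37. Nerve and Schwann cell markers (4 of 6) averaged -0.09, -0.28 and -0.11 against 0.05 to 0.31, and adipocyte markers (6 of 8) -0.28, -0.90 and -0.12 against -0.04 to 0.92. By that measure, 3 of 7 endothelial, 1 of 8 satellite cell, 2 of 14 nerve and 5 of 12 adipocyte probe sets were low. The cerebellum markers, 24 of whose 28 probe sets had the dimmest level range, averaged -0.11, -0.02 and -0.02 against 0.01 to 0.06, with 24 negative offsets and 2 of 28 probe sets below. Fibroblast and erythroid means did not separate the 3 arrays from the other 4, and neither did the muscle fibre mean, at 0.08, 0.09 and 0.11 against -0.58 to 0.11. Slow fibre markers were low in wild-type replicates 1 and 2, at -3.49 and -2.12, which is another pair of arrays. Of these lists, probe sets lay between 8 and 16 for 2 of 11 leukocyte, 1 of 7 endothelial, 0 of 8 satellite cell, 0 of 14 nerve and 5 of 12 adipocyte probe sets. The part of cell makeup in the array pattern was not tested, and in bulk muscle fewer cells of a type and less RNA per cell cannot be told apart. The control probe sets for 18S rRNA averaged -0.77, -0.20 and -0.20 in mutant replicate 2 and wild-type replicates 1 and 4. In the other 4 arrays they averaged -0.07 to 3.19, so their means too were lowest in these 3 arrays. These means rest on 3 probe sets. The median was -0.025 in wild-type replicate 4 and -0.023 in wild-type replicate 3, and 1 of the 3 lay above 0 in wild-type replicate 1. Mutant replicate 1, at 3.19, stood far above all others, with 0.56 in mutant replicate 3 the next highest.

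Among other ribosome and translation genes none of the 5 lists held a probe set past the threshold either. Of the components outside the symbol rule, 4 of 7 genes were measured with 7 probe sets, of which 6 had a positive difference and 0 passed the limma threshold. Fau, the precursor of the small subunit protein eS30, measured 0.14, -0.75 and 0.00 in mutant and -0.77, 0.19, 0.34 and -0.60 in wild-type muscle, low in the same 3 arrays as Rps15. Rpl7l1, a paralogue of Rpl7, differed by 0.22 ± 0.12 with the probe set of smallest p. Rpsa, the small subunit protein also known as the laminin receptor, had an offset of 0.26 with its brighter probe set.

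Ribosome biogenesis factors (27 of 28 genes, 52 probe sets) had 29 positive and 23 negative differences with a median of 0.02, and 0 passed, with 4 of the 52 at an unadjusted p under 0.05 in the limma fit, against 1.79% of all probe sets tested. Dkc1, the pseudouridine synthase of ribosomal RNA, differed by 0.64 ± 0.24 in the probe set of smallest p and by 0.12 ± 0.14 in its brightest. The first measured 0.10, 0.33 and 0.69 in mutant and -0.18, 0.00, -0.85 and -0.04 in wild-type muscle, so its groups did not overlap, with an adjusted p of 1.0 in limma. Nop2, a methyltransferase of the large subunit RNA, differed by -0.31 ± 0.12. Subunits and factors of RNA polymerase I (13 of 13 genes, 31 probe sets) had 17 positive and 14 negative differences with a median of 0.03, and 0 passed, with 1 of the 31 at an unadjusted p under 0.05 (1.79% of all). Polr1a, the largest subunit, differed by 0.37 ± 0.13 in its probe set of smallest p. That probe set measured 0.14, 0.25 and 0.16 in mutant and -0.24, -0.46, -0.05 and 0.00 in wild-type muscle. The other Polr1a probe sets differed by 0.32 ± 0.21, 0.03 ± 0.12, -0.06 ± 0.09 and -0.07 ± 0.23. Twistnb, another subunit, differed by 0.28 ± 0.13 in its probe set of smallest p. Its other probe sets differed by 0.38 ± 0.26 and 0.01 ± 0.28.

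Other TOP messages (14 of 15 genes, 32 probe sets) had 19 positive and 13 negative differences, a median of 0.02, 0 past the threshold and 0 at an unadjusted p under 0.05 in limma. Mutant replicate 2 and wild-type replicates 1 and 4 were all below the other 4 arrays in 7 of the 32 (21.9%), where all probe sets tested had 8.99% and the members 48.0%, and the difference between the lists was not tested. The median offset was -0.07, and 19 of the 32 lay between 8 and 16. Eef1a1, the elongation factor that brings tRNA to the ribosome, measured 0.41, -0.31 and 0.00 in mutant and -0.38, 0.11, 0.55 and -0.39 in wild-type muscle. Its offset was -0.62. Bright probe sets of Eif3e, a subunit of initiation factor 3, of Eef1d and of Btf3, a partner of Naca, had offsets of up to 0.89, 0.62 and 0.50. Another bright probe set of Btf3 had an offset of -0.53 and another of Eef1d one of -0.09, so bright probe sets of these genes disagreed in sign. Hnrnpa1, an RNA-binding protein, had the smallest p of the list, at a difference of 0.16 ± 0.10. Its other probe sets differed by -0.05 ± 0.13 and -0.04 ± 0.14. Eef1d, an exchange factor for elongation factor 1A, differed by -0.37 ± 0.37 in a dim probe set. Its other probe sets differed by 0.10 ± 0.12, -0.06 ± 0.14 and 0.01 ± 0.30. Genes of mTORC1 and TOP control (14 of 15 genes, 37 probe sets) had 25 positive and 12 negative differences with a median of 0.06, against -0.01 over all probe sets tested, and 0 passed, with 1 of the 37 at an unadjusted p under 0.05 in the limma fit (1.79% of all). Deptor, an inhibitor of mTOR, differed by 0.22 ± 0.09 and 0.37 ± 0.17 in the 2 probe sets of smallest p. Its other 4 probe sets differed by 0.46 ± 0.29, 0.06 ± 0.10, -0.13 ± 0.15 and -0.16 ± 0.11.

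On each side of the split between the 3 arrays and the other 4 the mean genotype difference over the members stayed small. Over the members, the other 4 arrays resembled each other little, with pairwise correlations from 0.01 to 0.31. The mean difference was 0.03 within the 3 arrays, where a single mutant array stands against 2 wild-type arrays, and -0.05 within the other 4. Single members differed more within the 3 arrays, such as Rpl11 at -0.29 and the most variable probe set of Rps15 at -0.25. Within the other 4 these differed by -0.02 and -0.03. With the split as a block in the limma fit the mean difference was -0.02, with 0 members past the threshold and 4 at an unadjusted p under 0.05. The share of all probe sets tested at that p was not counted for the blocked fit, so the 4 cannot be judged against it. These settings were chosen after seeing the data.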

How the data were processed

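Total RNA of 7 quadriceps muscles was labelled from 5 ug per the labels' protocols and hybridised to 1 Affymetrix array each. The deposited log2 values are relative to each probe set's median, which was exactly 0 in all 45101 probe sets. The submitters' processing notes name GCOS 4.0, and the summary method, scaling and centring are not given in the sources used here. The values were taken to be on a log2 scale. A level range per probe set (2 to 4, 4 to 8, 8 to 16, set by the lowest array) was read from the spacing of the numbers, which misplaces some probe sets. The upper bound of 16 was assumed and not read from the spacing. Names came from the platform annotation, updated through RefSeq (GRCm38.p6), which matched all 98 members.

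Tests used limma 3.58.1 in R 4.3.3 (lmFit, eBayes) on 34945 probe sets with 1 symbol (18193 genes), controls left out, comparing the 3 mutant and 4 wild-type arrays without covariates (two-sided), with Benjamini-Hochberg adjustment over all of them. The fit was tested on simulated data. Means over members carry no p. Precision is limited by the number of arrays. The labels do not say more on the replicates than that they are biological. Alternatives were quantile normalization, age, the replicate number as a block, level filters, 1 row per gene, robust eBayes and leaving out each array. Members and lists were chosen with earlier results of these data known. Named in full were members past the threshold or without overlap (there were 0), the 5 widest and 3 narrowest over the arrays, Rplp0, Rplp2, Rpl3l, Rps6, Rpl11, Rps19 and Rpl4, the 3 genes with the widest gap between probe sets, and the 2 probe sets of smallest p per list. Rpl39l, Rps20, Rps26, Rps9, Rps18, Fau, Rpsa, Eef1a1, Eif3e and Btf3 were added after their values were seen.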

Additional observations from a re-analysis of the deposited data

Results flagged for a closer look

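In 6 of 31 sets of 4 wild-type arrays, 1 array stood further from the other 3 than Dixon's critical value of 0.829 allows. Chance flags about 1 in 20 groups of independent values, a rate that does not apply here, because the values are centred on the median and several arrays tie at or near 0, which raises the ratio. Wild-type replicate 3 was high for the dimmer probe set of Rps6, at 0.47 against -0.05 to 0.02 in the other 3. Wild-type replicate 1 was high for the dimmest probe set of Rpl41, at 0.18, and low for another probe set of Rpl41, at -0.16, where the other 3 arrays lay from -0.01 to 0.00 in both. Wild-type replicate 1 was also high for Rps28 at 0.0272 and Rps2 at 0.0145, and wild-type replicate 4 for Rpl7 at 0.0261. In these last 3 the other arrays lay at or near 0, so the absolute deviation was small.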

How the results depend on the processing

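No setting gave a member past the adjusted threshold, with robust eBayes among them, and the mean difference over the members stayed within the SD between mice of 1 genotype under every setting run. It was 0.05 with quantile normalization, -0.00 with age as a covariate, 0.04 and 0.05 with the level filters and 0.01 with 1 row per gene, and it ran from -0.03 to 0.09 when 1 array was left out, so its sign was not stable. With the replicate number as a block it was -0.01, the same as without wild-type replicate 4, which that block leaves with no partner. The numbers do not pair the samples, since the deviations of same-numbered arrays correlated at -0.49, -0.32 and 0.15, and the block changed no call. When 1 array was left out, the members with complete separation numbered 0 to 4 with mutant muscle higher and 0 to 6 with it lower, the highest both without mutant replicate 2, where all probe sets tested had 5.31% and 5.01%. Within the 3 arrays that stood apart these counts were 49 and 22, against 37.6% and 34.5% of all probe sets tested, and within the other 4 arrays 6 and 16, against 11.8% and 15.1%. Of 439 alternative values for 28 named probe sets, 432 moved by less than the SD within genotype and 7 by more.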
